A study of Danio rerio with 12 samples.

Results

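Of 43603 probes on a zebrafish array, 99 were well above background on 5 and 8 on all 6 of 6 brain arrays after dsRNA, and these probes were so on none of 6 brain arrays without it. They were selected on the detection flag that the scanner software sets for each array, so detection after dsRNA is how they were chosen and not a result. Probes for gene symbols starting with stat, mx, irf, trim, ftr, btr, il or psm were left out, which removed 4 probes (stat1b, irf10, il4r.1 and mxe) of 111. A symbol was known for 47 of the selected probes, for 45 genes, and the other 60 could not be screened by name.

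The study measured the brain of adult zebrafish with and without dsRNA and behavioural fever, in which an ectotherm raises its body temperature by moving to warmer water. Each of 4 groups held 3 arrays, and each array a pool of 3 whole brains by the labels. The control (C) was not injected, the sham group (Sd) received PBS in a thermal gradient, and 2 groups received the synthetic dsRNA poly(I:C) by intraperitoneal injection, without a gradient (Ti) or with one (Td). RNA was taken after 24 h. The labels give a dose of 1 mg per kg and place C in the gradient, whereas the methods give another dose and keep C outside it, so that injection, dsRNA and housing are not separable for every pair of groups. The labels give no strain or sex.

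Double-stranded RNA is a sign of viral replication. Cells sense it through endosomal and cytosolic receptors and answer with type I interferons, which switch on genes for enzymes that degrade RNA, stop translation or tag viral proteins. In the brain, microglia, astrocytes, endothelium and neurons can all take part, and leukocytes can enter from the blood.

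Signals are given as the log2 of the scanner software's processed signal, which is background-subtracted and detrended, minus the 75th percentile of the same array. The deposited series table holds a log of the plain background-subtracted signal for 21278 of 45220 features on Ti3 and for 24344 to 34515 on the other arrays. The processed signal has values for the rest too, so dim readings need not be measured levels. A value of 0 is therefore the 75th percentile of that array, which was not equally bright on every array. Values are compared between arrays for 1 probe and never between probes. The arrays differed in brightness. Between 10725 and 21900 features were well above background on 11 arrays, against 6330 on Ti replicate 3 (Ti3), whose 75th percentile was 34.6 intensity units against 99.0 to 541 on the others. The lowest signal well above background lay at -0.64 on Ti3 and between -4.29 and -0.98 on the other arrays. The median of all 43603 probes was -0.97 on Ti3 and between -3.15 and -2.16 on the other arrays. Dim probes thus tended to read higher on Ti3 than elsewhere. A reading above 0 on Ti3 need not be flagged as well above background, and the mov10b.2 probe read 1.52 there without the flag. Each of 3 slides carried 1 array of each group. All 15 brain markers on the array, of 20 listed, were detected on at least 1 array.

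Ti3 decided much of the selection. Of the 99 probes detected on 5 dsRNA arrays, 86 were missed on Ti3. Of the others, 8 were missed on Ti2, 4 on Td2 and 1 on Td3. Ti1 and Td1 carried every selected probe. Setting Ti3 aside, 94 were detected on all 5 remaining dsRNA arrays. The opposite pattern, 5 or 6 of the C and Sd arrays and no dsRNA array, was met by 0 probes, and 8 probes were on 4 of the C and Sd arrays and no dsRNA array. The C and Sd arrays held 10725 to 17901 flagged features, Ti1 and the Td arrays 17773 to 21900, Ti2 13494 and Ti3 6330. These patterns thus did not have equal room, and their counts are not a test of dsRNA. Across the array, 5427 probes were detected on all 12 arrays and 18002 on none.

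**Figure D1:**
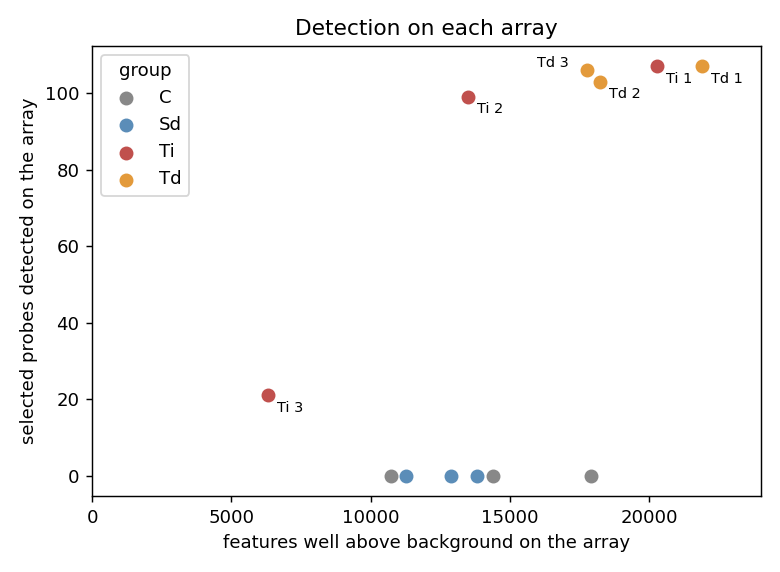
Number of the selected probes detected on each array (vertical axis) against the number of features well above background on that array (horizontal axis), coloured by group. Ti3, with 6330 features, carried 21 of the probes. The C and Sd arrays, C2 with 17901 features among them, carried none because the rule required it.

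The threshold was a narrow one. A further 620 probes were detected on 4 dsRNA arrays and on no other, and 178 on 5 or 6 dsRNA arrays and 1 other. The 620 had medians from -2.0 to -1.12 on the dsRNA arrays and from -2.53 to -2.13 on the others. The 178 had medians from -0.94 to -0.06 on the dsRNA arrays and from -2.96 to -1.37 on the others. The selected probes had medians of -0.85, 0.06 and -0.68 on Ti1 to Ti3, and of -1.07, -1.10 and -1.02 on Td1 to Td3. On C they read -2.23, -2.64 and -3.16, and on Sd -2.32, -2.57 and -2.69. In these medians the dsRNA arrays lay above the other arrays, in the contrast that chose the probes, and the Td arrays lay closer together than the Ti arrays.

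**Figure D2:**
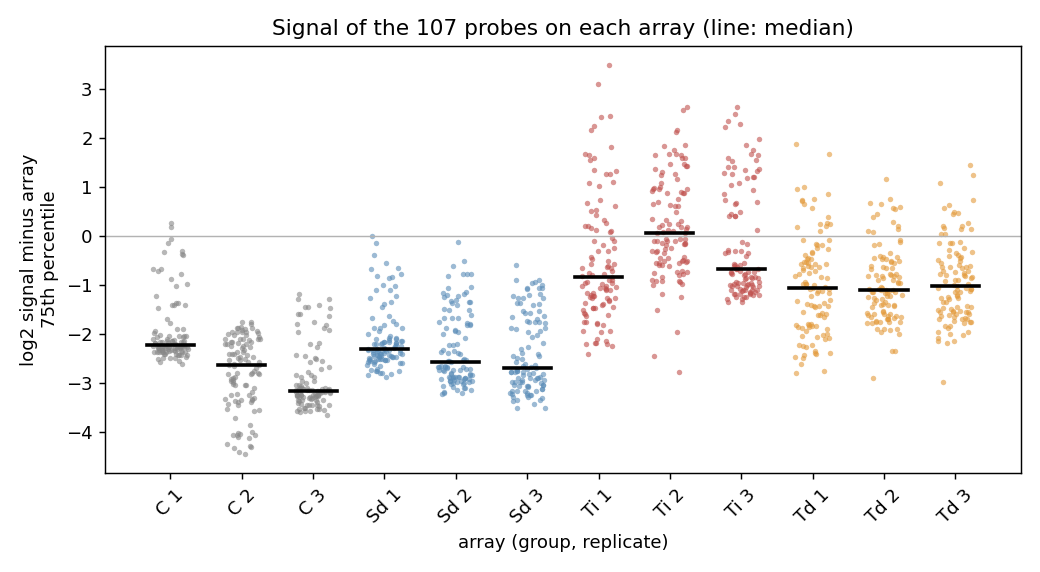
Signal of each selected probe (dots) on each of the 12 arrays, as log2 signal minus the 75th percentile of the array, with the median as a line. Medians lay between -3.16 and -2.23 on C and Sd, between -0.85 and 0.06 on Ti and between -1.10 and -1.02 on Td.

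Since no selected probe was flagged as well above background in C or Sd, a fold over these groups is given as a bound. It sets the mean of all arrays of the bright group, flagged or not, against, on each dim array, either the probe's own signal or the lowest signal that was still flagged, whichever was higher. An array on which the probe was not flagged, most often Ti3, can raise or lower this mean. Over the selected probes the bound for the 6 dsRNA arrays over the 6 others had a median of at least 2.47-fold and reached at least 13.7-fold. It was at least 2-fold for 74 probes and at least 4-fold for 20. For Ti over Sd the median bound was at least 2.73-fold, with 81 probes at 2-fold or more, and for Td over Sd it was at least 1.61-fold, with 37. For 41 probes all 6 dsRNA arrays lay above all 6 others in scaled signal, where 1.2% of the 19134 probes tested did so, and the same contrast chose the probes. With only the flagged dsRNA arrays in the mean, the median bound for dsRNA over the others was 2.4-fold, with 71 probes at 2-fold or more and 19 at 4-fold or more, and it was below the bound over all arrays for 52 probes. Without Ti3 there were 63 probes at 2-fold or more and 42 with no overlap. The 1.2% above is a share for all 6 dsRNA arrays, so it does not apply to that 42. Both alternatives were chosen after the data were seen. The remaining probes overlapped on this scale, so for them the detection flag separated the groups and the signal did not.

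Some of the selected genes were on lists of immune genes. Listed were 256 symbols for RNA sensing, interferon signalling, interferon-induced effectors, ubiquitin-like modification, large GTPases, ADP-ribosyltransferases, chemokines, complement, acute phase proteins, antigen presentation and inflammation. Of these, 114 were on the array under a matched symbol, and 5 were among the selected probes, namely mov10b.1, rsad2, pkz, herc56.3 and casp8. Over the whole array, 45 of 11484 genes with a symbol were selected. The lists were chosen with earlier results of these data known, so these counts are not a test.

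Probes for mov10b.1 and mov10b.2, which are neighbours in gene order and encode relatives of the mammalian antiviral RNA helicase MOV10, were both selected. The brighter mov10b.1 probe (NM_001044342) was the only one of the 8 probes detected on all 6 dsRNA arrays that had a symbol. It read 3.09, 2.63 and 2.62 in Ti and 1.88, 1.16 and 1.45 in Td. It read 0.26, -3.26 and -2.96 in C and 0.00, -2.21 and -3.04 in Sd. The dsRNA arrays lay above all others, and C1 and Sd1 stood out within their groups although neither was flagged as well above background. The second mov10b.1 probe did not share those raised readings, with -2.38 on C1 and -2.54 on Sd1. Bounds for the brighter probe were at least 16.7-fold in Ti and at least 6.86-fold in Td over Sd, both over arrays that were all flagged. For the second probe, detected on 2 of 3 Ti arrays, the bound over Sd was 3.92-fold over the 2 flagged Ti arrays (5.0-fold over all 3) and at least 2.2-fold in Td.

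For mov10b.2 (NM_001044340) the Ti arrays read 1.26, 0.69 and 1.52 and the Td arrays -0.64, -0.81 and -0.84. The C arrays read -2.06, -3.22 and -2.96 and the Sd arrays -0.68, -1.18 and -2.69. All 3 Ti arrays stood above the other groups in scaled signal, whereas Td overlapped Sd, in which Sd1 was high. Ti3, the highest array, was not flagged, and its signal of 98.9 intensity units was below the 131.5 of Sd2.

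The gene rsad2 (NM_001025556) encodes viperin, an interferon-induced radical-SAM enzyme that in mammals makes a chain-terminating nucleotide. Its probe read 1.81, 1.65 and 1.67 in Ti and -0.18, -2.36 and -1.10 in Td. It read -2.35, -4.29 and -3.36 in C and -2.48, -3.06 and -3.31 in Sd. Ti was tight and far above every other array, while the Td arrays ranged widely, with Td2 not flagged and level with C1. The bounds over Sd were at least 13.9-fold in Ti and at least 1.83-fold in Td.

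The gene pkz (NM_001040376), a fish kinase related to PKR that binds Z-form nucleic acid and halts translation, read 1.64, -0.17 and 0.74 in Ti and 0.39, -0.53 and -0.24 in Td. Its C arrays read -2.24, -3.58 and -3.26 and its Sd arrays -2.18, -1.67 and -2.46. The dsRNA arrays stood above all others in scaled signal and the 2 dsRNA groups overlapped. Ti3 was not flagged, and its signal of 57.8 intensity units was below the 93.95 of Sd2. Bounds over Sd were at least 6.71-fold over the 2 flagged Ti arrays (6.72-fold over all 3) and at least 3.69-fold in Td.

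For herc56.3 (NM_001098763), a member of a family that in mammals attaches the ubiquitin-like ISG15 to proteins, the Ti arrays read 3.48, 0.97 and 0.64 and the Td arrays -2.25, 0.76 and 1.07. The C arrays read -2.23, -3.40 and -3.25 and the Sd arrays -2.0, -2.97 and -3.13. This probe split within its groups. Ti1 lay far above Ti2 and Ti3, and Td1, although flagged as well above background, read as low as C1. On slide 1 alone Td lay 5.72 below Ti, and on slides 2 and 3 the difference was -0.21 and 0.43.

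The probe for casp8, the initiator caspase of death-receptor apoptosis, read -0.79, -0.33 and 0.86 in Ti and -0.99, -1.29 and -0.81 in Td. It read -2.17, -2.50 and -3.12 in C and -1.10, -2.73 and -2.95 in Sd. The groups without dsRNA lay lower except for Sd1, which fell within the range of Td. Ti3, the highest array, was not flagged.

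**Figure D3:**
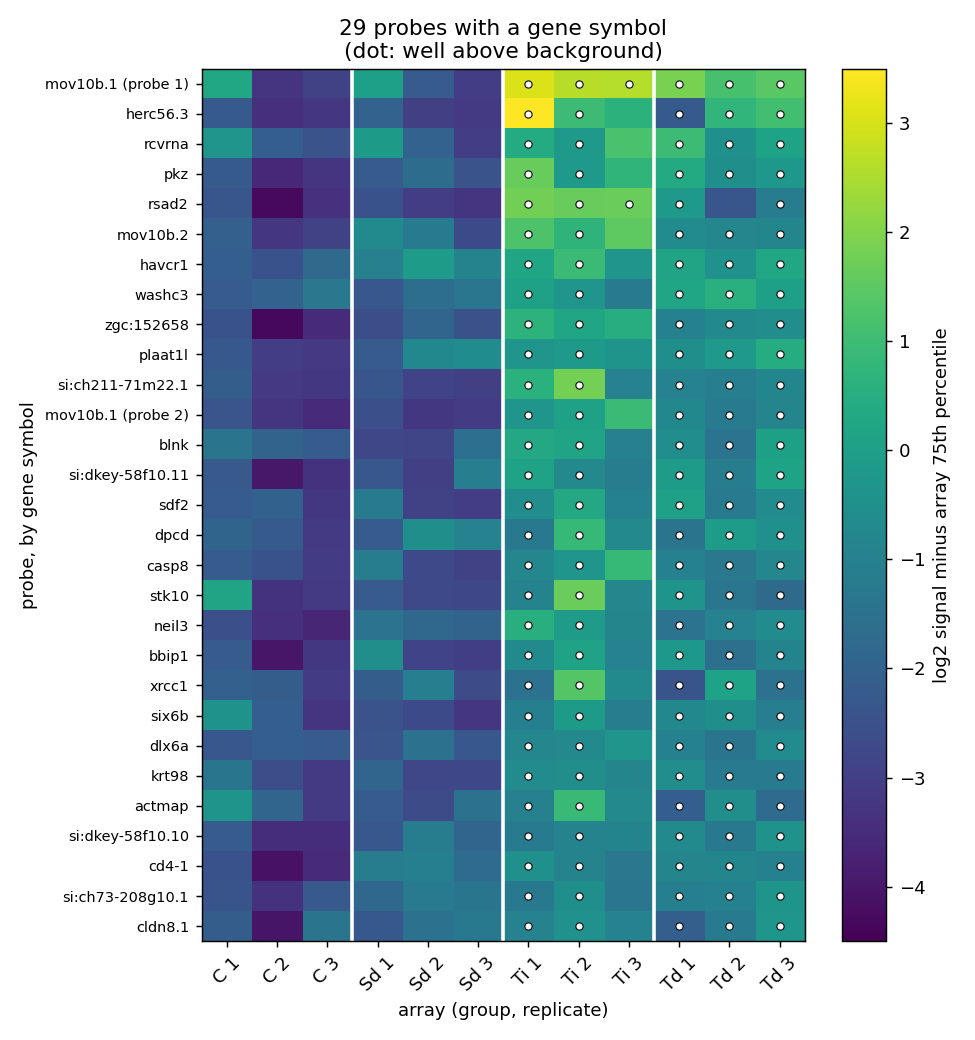
Scaled log2 signal (colour) of 29 of the 30 probes with a symbol whose mean over the dsRNA arrays was highest (rows, 1 probe not reported here), on the 12 arrays (columns, grouped by C, Sd, Ti and Td); a dot marks a dsRNA array on which the probe was well above background. Dots on Ti3 are present for the brighter mov10b.1 probe and rsad2 and missing for the other rows.

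Several selected genes are known from leukocytes. The probe for havcr1, a TIM-family receptor that in mammals binds phosphatidylserine, read 0.21, 0.95 and -0.32 in Ti and 0.17, -0.46 and 0.26 in Td. It read -1.03, -0.12 and -0.91 in Sd and -2.10, -2.47 and -1.75 in C. Sd lay between C and the dsRNA groups, and Sd2 overlapped both of them. The probe for cd4-1, the co-receptor of helper T cells, read -0.47, -0.92 and -1.30 in Ti and -0.86, -0.83 and -0.99 in Td. Its Sd arrays read -1.11, -1.05 and -1.69 and its C arrays -2.49, -4.10 and -3.54, so that the sham arrays stood closer to dsRNA than to the control. For cd4-1 the bound over C was at least 3.77-fold in Ti and over Sd at least 1.31-fold. The probe for blnk, the B cell linker adaptor, read 0.32, 0.18 and -1.03 in Ti and -0.57, -1.45 and 0.04 in Td. It read -2.80, -2.84 and -1.58 in Sd and -1.42, -1.96 and -2.18 in C, with C1 above Td2.

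Marker lists were read beside these genes. On the lymphoid list, 13 of 28 symbols were on the array, 5 (cd8a, cd37, rag1, rag2 and tbx21) were detected on no array, and limma called 0 of the 5 tested genes other than cd4-1 for dsRNA against no dsRNA (0 also at an unadjusted p under 0.05). The summed lymphoid signal without cd4-1, in units of the 75th percentile of each array, was 3.5 to 4.36 in C, 8.53 to 9.42 in Sd, 5.75 to 9.99 in Ti and 5.2 to 9.54 in Td. On the myeloid list 13 of 21 symbols were on the array and all were detected somewhere, and 1 of 12 tested genes other than havcr1 was called higher after dsRNA, where 1.2% of all probes were (5 of the 12 at an unadjusted p under 0.05). Among those 5, csf1ra was detected on 3 dsRNA arrays and 0 others, so it met the filter of the test only through dsRNA arrays. The called gene was mfap4.1, a macrophage marker, which averaged -0.31 in C, 1.93 in Sd, 2.56 in Ti and 3.2 in Td (adjusted p = 0.0114, limma). The summed myeloid signal without havcr1 was 182 to 234 in C, 446 to 527 in Sd, 326 to 404 in Ti and 325 to 436 in Td. Both sums were lowest in C. The myeloid sum was highest in Sd and the lymphoid sum in Sd overlapped both dsRNA groups. In whole brain, more cells of a type and more RNA per cell cannot be told apart.

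Other named probes came from varied functions. The probe for neil3, a DNA glycosylase, read 0.51, -0.11 and -0.87 in Ti and -1.44, -0.95 and -0.64 in Td, against -2.55, -3.43 and -3.65 in C and -1.46, -1.81 and -1.94 in Sd. Every dsRNA array lay above every other array in scaled signal, narrowly so for Td1 against Sd1. Ti3 was not flagged, and its signal of 18.9 intensity units was below the 21.1 to 88.4 of the C and Sd arrays. For xrcc1, the scaffold of single-strand break repair, Ti read -1.48, 1.36 and -0.68 and Td -2.41, 0.14 and -1.51, against -2.06, -2.13 and -3.11 in C and -2.14, -1.07 and -2.66 in Sd. This probe was highest on slide 2 in Sd, Ti and Td, and its Td1 reading was below C1 and C2. For washc3, a subunit of the endosomal WASH complex, Ti read 0.07, -0.32 and -1.21 and Td 0.21, 0.59 and 0.03, against -2.16, -2.0 and -1.30 in C and -2.33, -1.61 and -1.37 in Sd. All dsRNA arrays were above all others in scaled signal, narrowly so for Ti3 against C3. Ti3 was not flagged, and its signal was 14.9 intensity units against 131.6 on Sd3.

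Among the remaining probes of the 30 were stk10 (a kinase known as lymphocyte-oriented in mammals), dpcd and bbip1 (cilia), sdf2 (endoplasmic reticulum), plaat1l (a phospholipid-modifying enzyme family), actmap (actin maturation), krt98 (a keratin), cldn8.1 (a claudin), the homeobox genes dlx6a and six6b, and zgc:152658, si:ch211-71m22.1, si:dkey-58f10.10, si:dkey-58f10.11 and si:ch73-208g10.1, for which no role is given here. The genes si:dkey-58f10.10 and si:dkey-58f10.11 are neighbours in gene order. Also among the 30 was rcvrna, recoverin of photoreceptors, which read 0.42, -0.18 and 1.2 in Ti and 0.99, -0.47 and 0.14 in Td, against -0.33, -2.11 and -2.46 in C and -0.14, -2.0 and -3.06 in Sd. Its slide 1 arrays in C and Sd reached the range of the dsRNA arrays. On the eye and pineal list, 11 of 16 symbols were on the array, aanat2 was detected on none, and limma called 0 of the 9 other tested genes (1 at an unadjusted p under 0.05). The summed signal of that list without rcvrna was 122 to 249.9 in C, 246 to 399 in Sd, 251 to 402 in Ti and 190.4 to 344 in Td, and the part of such tissue in the rcvrna readings was not tested.

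The 17 dimmer probes with a symbol, named here only so that each is accounted for, were 2 for abca4a and 1 each for mak16, hdac10, etfbkmt, slco2b1, arl6ip5a, shisa10.2, poc1b, uck2a, prkacba, cybc1, dolpp1, glulc, mafbb, dkk1b and orc6. They include no gene of the immune lists.

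Of the 8 probes detected on all 6 dsRNA arrays, 7 had no gene symbol. They were ENSDART00000079559, EH501024, ENSDART00000082383, ENSDART00000114822, TC400503, ENSDART00000003347 and BC107996, and the Ensembl, cluster and mRNA names among them are those of the array design. ENSDART00000079559 read 2.15, 2.15 and 1.28 in Ti and 1.66, 0.64 and 1.24 in Td, against -2.48, -2.64 and -3.54 in C and -2.15, -1.68 and -1.64 in Sd. Its bounds over Sd were at least 12.1-fold in Ti and at least 7.55-fold in Td. EH501024 read 2.42, 2.57 and 1.08 in Ti and 0.73, 0.38 and 0.62 in Td, against -2.51, -3.03 and -3.57 in C and -2.63, -2.39 and -3.51 in Sd. For both probes the distance between the dsRNA arrays and the others was wider than the range within either set.

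ENSDART00000082383 read 1.59, 1.30 and 2.23 in Ti and 0.56, 0.44 and 0.49 in Td, and all C and Sd arrays lay between -3.10 and -2.04. ENSDART00000114822 read 1.68, 2.12 and 1.27 in Ti and 0.85, -0.43 and 0.74 in Td, and all C and Sd arrays lay between -3.53 and -1.94. In both, as in EH501024, the 3 Td arrays lay below the 3 Ti arrays. BC117638, detected on 5 dsRNA arrays, read 1.02, 1.86 and 1.04 in Ti and 0.65, 0.54 and 0.19 in Td. Its Sd arrays, at -1.63, -1.78 and -1.26, were above its C arrays, at -2.26, -4.07 and -3.27.

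BC107996 followed another course although it was detected on all 6 dsRNA arrays. It read -1.81, 0.99 and 2.49 in Ti and -1.43, -1.42 and -1.85 in Td, against -1.76 to -3.07 in C and -2.53 to -2.91 in Sd. Only Ti2 and Ti3 were high, and Ti1 was level with C2. After the values were seen, 7 selected probes were found with Ti2 and Ti3 each more than 1 above Ti1 and all Td arrays: BC107996, CD758771, TC374478, TC408699, hdac10, ENSDART00000079953 and CT689997. They are a pattern of 2 pools in scaled signal. On Ti3, however, TC408699, hdac10 and ENSDART00000079953 were not flagged. Their signals there were 47.2, 55.9 and 30.7 intensity units, below the 98.8, 84.5 and 168.3 of their highest C or Sd array.

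By kind of identifier, 50 of the selected probes carried a RefSeq accession, 22 an Ensembl transcript, 13 a TIGR cluster, 15 an EST, mRNA or other name and 7 only the probe's own ID. No symbol was available for 60, or 56.1%. The share was 62.0% over all 43603 probes, 52.4% over the 620 probes on 4 dsRNA arrays, 44.1% over the 19134 tested and 35.0% over the 5427 detected on all 12 arrays. The selected set thus had fewer probes without a symbol than the array as a whole and more than the probes that are often detected. Ensembl names made up 20.6% of the set and 12.1% of the array.

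**Figure D4:**
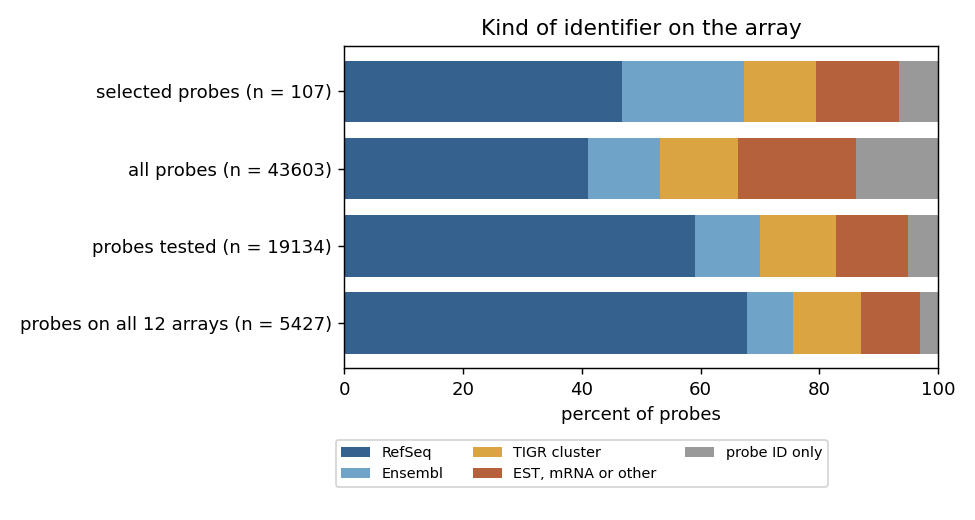
Percent of probes by kind of identifier on the array, for the selected probes, all 43603 probes, the 19134 tested and the 5427 detected on all 12 arrays. RefSeq accessions made up 46.7% of the selected probes and 67.9% of those detected on all arrays, and Ensembl names 20.6% and 7.65%.

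The label of these probes, transcripts detected only after dsRNA, held for the probes and often not for their genes. Of the 45 genes, 19 had another probe on the array, 22 such probes in all. In 14 of the 19, another probe was detected on a C or Sd array, and in 4 (bbip1, hdac10, krt98 and stk10) on all 6 of them. The other stk10 probe was detected on all 12 arrays, with a mean of 1.15 over the dsRNA arrays and 1.93 over the others. The other bbip1 probe averaged 1.35 and 1.5, and the other krt98 probe 0.23 and 0.23. For these 3 genes the second probe was not higher after dsRNA. Over all 22 other probes, the mean of the dsRNA arrays was higher for 16 and not higher for 6. Some of the 16 were nearly flat, with 0.06 and 0.14 for hdac10, 0.11 for xrcc1 and 0.14 for uck2a, whose other probe was detected on no array. The median difference over all tested probes was 0.06. The other pkz probe was detected on 6 dsRNA and 4 other arrays and averaged 2.17 after dsRNA and -0.33 without it, a difference in the same direction as in the selected probe. For the 5 genes whose other probes were on no C or Sd array, these probes were detected on between 0 and 4 dsRNA arrays. The set is therefore best read as probes detected only on the dsRNA arrays.

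The dsRNA groups with a thermal gradient (Td) and without one (Ti) were compared. The rule did not use the difference between Td and Ti directly. It could act on it through the array that a probe could miss, which was a Ti array for 94 probes and a Td array for 5. It could also act through the flag, with 20280, 13494 and 6330 features flagged on Ti1 to Ti3 and 21900, 18244 and 17773 on Td1 to Td3. As a probe could miss only 1 array, the rule could favour probes high on arrays with few flagged features. The probes tested as a whole met no such condition, and its part in the counts below was not tested. Over the selected probes, Td minus Ti had a median of -0.80, against 0.18 over all 19134 probes tested. Td was lower on average for 96 of them, where 35.1% of all probes were, and higher for 11. The 96 became 54 with each array centred on its 50th percentile, 75 after quantile normalization and 82 after normexp background correction. The 35.1% is for the main setting only, and with the 50th percentile the median of all tested probes was 0.96. For 27 probes the 3 Td arrays lay below the 3 Ti arrays with no overlap (2.38% of all probes), and for 0 they lay above (9.25%). Td was lower on all 3 slides for 54 (6.76%). The median was -0.37 on slide 1, -1.14 on slide 2 and -0.61 on slide 3. On slide 3 the Ti array was Ti3, where 86 of the selected probes were not flagged. The set's median signal was 21.6 intensity units on Ti3 and 115.9 on Td3, so there Td lay lower in scaled signal only. Readings without the flag thus enter the counts of 27 and 54.

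**Figure D5:**
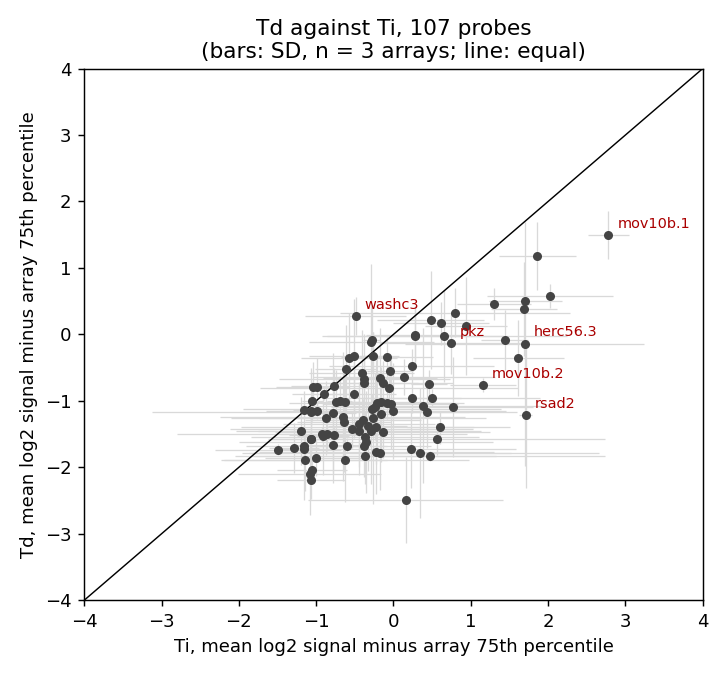
Mean scaled log2 signal of each selected probe in Td (vertical axis) against Ti (horizontal axis), with bars of 1 SD over 3 arrays and the line of equal means. Of the points, 96 lie below the line, rsad2 among the farthest, and washc3 is the farthest above it.

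No single probe of the set passed the test. At an unadjusted p under 0.05, limma found 25 of them, all lower in Td, where 2.0% of all probes were lower at that level. At an adjusted p under 0.05 it called 0 of them, and 0.00523% (1 of 19134) of all probes. The lowest adjusted p in the set was 0.658, for rsad2, with a difference of -2.92 (SE 0.57). The next most negative differences were -2.65 (SE 0.72) for CT689997 and -2.29 (SE 0.84) for CD758771, both with an adjusted p of 0.787. CD758771 read -2.14, 1.58 and 1.98 in Ti and -1.82, -1.91 and -1.75 in Td, so its difference came from Ti2 and Ti3. Without Ti1 it was -3.6 and passed the adjusted threshold, the only call among these probes when any array was left out. The highest positive differences were 0.77 (SE 0.41) for washc3, 0.26 (SE 0.39) for si:ch73-208g10.1 and 0.22 (SE 0.59) for si:dkey-58f10.11, with adjusted p of 0.787, 0.902 and 0.957.

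The shift of the whole set depended on what it was set against. With dim probes kept, the median of all probes was itself -0.82, so that the set lay 0.02 from it, whereas it lay 0.99 below the 19134 tested probes. With each array centred on its 50th percentile the median of the set was -0.03 and that of all tested probes 0.96, so that the set again lay 0.99 below them. The distance from the tested probes was -0.71 after quantile normalization and -0.52 after normexp. In the series table, the 3 columns of each dsRNA group hold the arrays of the other one. The selection is the same under either assignment, but under that of the series table the sign of every difference between Td and Ti turns, with a median of 0.80. The assignment used here is the one on which the scanner files and the separate table of each sample coincide.

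Among the array highest for each probe within the dsRNA arrays, Ti2 held 56 of the selected probes, Ti3 25, Ti1 16, Td3 6, Td2 3 and Td1 1. Over the probes tested, Ti2 was the highest for 8.5% and Ti3 for 28.4%. Without Ti2 the median of Td minus Ti was -0.54 with 87 probes lower in Td, and without Ti3 it was -0.83 with 96.

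Genes of the same immune lists that were not selected were tested for dsRNA against no dsRNA, since the rule did not choose them. The lists themselves were chosen with earlier results of these data known, so this is not an independent check. Of 80 such genes, 12 were called higher and 0 lower, where 1.2% of all probes were higher and 0.214% lower (1 of the 80 was lower at an unadjusted p under 0.05), and their median difference was 0.50 against 0.06 over all probes. With each array centred on its 50th percentile, or after another background correction, 4 of them were called, and 5 with dim probes kept. Some of the 80, such as faslg on 4 dsRNA arrays and 0 others, met the filter of the test only through dsRNA arrays. Each of the 12 genes called in the main setting was detected on at least 3 C or Sd arrays. Of the effectors, ifi27.2 averaged 3.6 in C, 4.23 in Sd, 7.84 in Ti and 7.58 in Td (difference 3.79, SE 0.28, adjusted p = 7.94e-05). A pair of further members of the ifi27 family, which encodes small interferon-induced membrane proteins, rose by 2.97 (ifi27.1) and 1.69 (ifi27.7), and xaf1, a pro-apoptotic interferon target, by 1.72. These were detected on all 12 arrays, so that their rise, unlike that of the selected probes, was measured on both sides.

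The other calls fell in a few lists. The genes irge4 and irgq1 of the large GTPase list rose by 2.16 (SE 0.22) and 1.38 (SE 0.22) and were each detected on 6 dsRNA and 3 other arrays. The ligase rnf114 rose by 1.12 and parp12b, an antiviral ADP-ribosyltransferase in mammals, by 1.17. The chemokine receptor cxcr3.2, found on activated T cells and macrophages, rose by 1.5 (adjusted p = 0.00353). The 3 chains of C1q, made by microglia and macrophages, rose by 2.2 (c1qa), 1.91 (c1qb) and 1.64 (c1qc). For c1qa the mean was -1.68 in C, 0.60 in Sd, 1.60 in Ti and 1.73 in Td, so that Sd averaged above C, as for mfap4.1, havcr1 and cd4-1. For cxcr3.2, c1qb and c1qc, too, the mean of Sd was closer to Ti and to Td than to C. For xaf1 the mean was 1.9 in C, 3.2 in Sd, 4.6 in Ti and 4.0 in Td, so that Sd was closer to Td than to C. For ifi27.1, ifi27.2, ifi27.7, irge4, irgq1, rnf114, parp12b and the selected rsad2, the mean of Sd was closer to C than to Ti or Td. Each rise was measured over the C and Sd arrays, so where Sd averaged above C it was smaller over Sd than over C. The difference between these patterns was not tested.

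On the muscle, skin and heat shock lists, the genes called after dsRNA were lower, where 0.214% of all probes were called lower. On the muscle list 3 of 12 tested genes were called, with 10 at an unadjusted p under 0.05 (the calls were mylz3, actc1b and tpma, with differences of -1.32, -1.37 and -2.08), and the summed signal was 1610 to 2548 in C, 2057 to 3647 in Sd, 1281 to 1391 in Ti and 1218 to 1318 in Td. On the skin list 1 of 11 was called, with 3 at an unadjusted p under 0.05 (the call was krt93, with a difference of -2.62). On the heat shock list 3 of 14 were called, with 8 at an unadjusted p under 0.05. The calls were hspa1b, hsp90aa1.1 and hspb1, with differences of -4.15, -3.19 and -1.95 over the pooled groups. For hspb1 the mean was 5.22 in C, 7.11 in Sd, 3.17 in Ti and 5.27 in Td, so that Td was level with C. For hspa1b it was 1.56, 3.75, -3.18 and 0.19 in the same order. Both hspa1b and hsp90aa1.1 were detected on only 3 of 6 dsRNA arrays, so their differences rest in part on readings without the flag. Limma called 0 of 8 tested genes of the blood list, 0 of 15 of the brain list, 0 of 6 of the endothelium list, 0 of 6 of the liver list and 0 of 5 of the pituitary list, with 0, 2, 2, 1 and 1 at an unadjusted p under 0.05. Among the latter, elavl3 (brain) was detected on 4 dsRNA arrays and 0 others and cldn5a (endothelium) on 4 and 2. Both met the filter of the test only through dsRNA arrays. The part of these tissues in the signal of the selected probes was not tested.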

How the data were processed

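The deposited scanner files come from Feature Extraction (version 10.7.3.1 and design 019161, per the file headers, where the methods give others), and hold intensities on a linear scale that were background-subtracted and detrended but not scaled between arrays. The deposited series table holds natural log values of the background-subtracted signal, which matched the scanner output within 0.001. The deposited detection and outlier flags are 0 or 1. Labels are the groups' source.

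Features marked as outliers were left out, repeated features averaged, and the 75th percentile of each array subtracted from log2 signal. The test took probes detected on 3 or more of 12 arrays with 2 or more values per group and ran in limma 3.58.1 (R 4.3.3), two-sided, in 1 fit over 4 groups, with Benjamini-Hochberg adjustment over 19134 probes. A probe could thus enter the test through the dsRNA arrays alone. For genes with several probes the one with the highest mean stood for the gene. The fits were tested on simulated data. As nothing says which pools share housing or a day, p-values measure the spread between these pools only, and the number of arrays limits the precision. Symbols came from unversioned RefSeq accessions matched to the GRCz12tu gene table (16568 probes). Named were the 30 selected probes with a symbol and the 5 without one with the highest mean over the dsRNA arrays, the 3 largest differences between Td and Ti in each direction, and up to 4 called genes per list. The 107 selected probes and the gene lists were chosen with earlier results of these data known. Alternatives were the 50th percentile, quantile normalization, normexp on median signals (offset 50), the replicate block, array weights, 1 value per gene, no filter on dim probes, the exchanged dsRNA groups, other detection rules and leaving out each array. A selected probe with a symbol is not reported here.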

Additional observations from a re-analysis of the deposited data

How the results depend on the processing

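The selection depended on single arrays. It held 8 probes with all 6 dsRNA arrays required, and from 110 to 707 with 1 array left out. The main selection held 99 and 8 probes, and the counts far from their sum were 244 without C2, 669 without Ti2 and 707 without Ti3, where 4 of 5 remaining dsRNA arrays sufficed, and each of these sets held all of the selected probes. It held 108 with every feature of a probe required, 123 with the other detection flag and the main number without outlier features. The median of Td minus Ti, -0.80, was -0.030 with the 50th percentile, -0.22 after normexp, -0.37 within slide 1 and 0.80 with the dsRNA groups exchanged, and ranged from -0.94 to -0.54 with 1 array left out. The median of all tested probes moved too, from 0.18 to 0.96 with the 50th percentile and 0.30 after normexp, so that the set lay -0.99 and -0.52 from them. Other causes were not tested. The 1 probe called between Td and Ti (1082 at an unadjusted p under 0.05) became 0 with the 50th percentile (2077 unadjusted), quantile normalization (1094), normexp (739) and dim probes kept (3397), 3 with array weights, and 0 to 6 with 1 array left out (6 without Ti1, with 1656 unadjusted). For si:dkey-58f10.11 the difference of 0.22 turned to -0.045 without Ti3 and -0.030 without Td3 and reached 0.61 without Td2. The 12 immune genes called for dsRNA became 4 with the 50th percentile, 4 after normexp and 5 with dim probes kept. Same-numbered Ti and Td arrays, which share a slide, deviated together by correlations of 0.15, 0.18 and -0.19, so the numbers were not taken as pairs. With the replicate block the median was -0.80, 1 probe was called between Td and Ti and 16 immune genes for dsRNA. Dim signal limited detection most on Ti3, where 88 selected probes had less signal in intensity units than their highest C or Sd array.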
